A study of Homo sapiens with 6 samples.

Results

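The 45 genes described here encode proteins that build ribosomes in the nucleolus, and they were taken by name from a fixed list, 45 of the 60669 genes in the count files. The list was chosen with earlier results of these data known. Expression was measured by total RNA sequencing of 293T, a transformed line of human embryonic kidney origin, in 6 libraries. The groups were PRMT1 knockdown cells made with a short hairpin RNA, MLL2 knockout cells made with CRISPR/Cas9, and control cells labelled wild type, with 2 libraries each, described by the study as biological replicates. All groups are labelled as otherwise untreated. Names in the file headers carry the tag shNT for control and knockout libraries and shPR for knockdown libraries, and the labels explain neither tag. Nor do they say whether the knockout cells were 1 clone, so traits of a clone and effects of the knockout cannot be told apart.

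Ribosome assembly starts when RNA polymerase I copies the ribosomal RNA precursor in the nucleolus. Small nucleolar RNA-protein particles (snoRNPs) modify that precursor, a large early complex called the small-subunit processome folds and cuts it, and separate sets of factors then mature the small and the large subunit. Growing cell lines such as 293T need many of these proteins, and their genes are known as targets of the transcription factor MYC. PRMT1 is an arginine methyltransferase. The nucleolar proteins fibrillarin and nucleolin carry glycine- and arginine-rich stretches that it is known to methylate. MLL2, a name used for KMT2B and for KMT2D, is a histone H3 lysine 4 methyltransferase.

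The libraries held 20061471 to 22351532 counts, and 17575 genes passed the filter on low counts, all 45 members among them. Levels are given as CPM, counts scaled to a common library size. PRMT1 stood at 38.2 and 34.9 CPM in knockdown cells, 406 and 425 CPM in knockout cells and 306 and 319 CPM in control cells. KMT2B (7.12 and 7.36 CPM against 6.74 and 7.53 CPM) and KMT2D (20.8 and 24.2 CPM against 22.5 and 17.03 CPM) overlapped between knockout and control cells, so their levels do not check the knockout label. All 8 genes listed as 293T markers were read in each group, at a summed 1014 to 1094 CPM in knockdown cells, 889 to 894 CPM in knockout cells and 1228 to 1250 CPM in control cells. Single markers moved more than the sum: 2 were higher and 4 lower in the knockdown, and none higher and 5 lower in the knockout. KRT8 was 4.99-fold lower in the knockdown and 5.36-fold lower in the knockout, NEFL 6.36-fold and 2.26-fold lower, and PAX2 was near 0 (at most 0.54 CPM). Marker sums for other cell types were at most 3.09 CPM for blood (2 of 5 genes at 0 in each group), 16.1 CPM for fibroblasts (1 of 5 at 0) and 1.71 CPM for endothelium (1 or 2 of 4 at 0). In bulk RNA, fewer cells of a type and less RNA per cell cannot be told apart.

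The members were highly expressed, with a median of 137.5 CPM over the libraries against 14.6 CPM for all genes tested. Per kilobase of exon, the nucleolar chaperone NPM1 had the highest level in control cells, at 1004 and 947 CPM per kb. GNL3, the GTPase nucleostemin, followed at 172 and 178 CPM per kb, and the RNA helicase DDX21 at 154 and 156 CPM per kb. These 3 levels did not overlap. NCL, nucleolin, at 77.9 and 71.5 CPM per kb, and NOLC1, a phosphoprotein that escorts snoRNPs, at 73.05 and 76.2 CPM per kb, did overlap. Near the low end lay POLR1A, the largest subunit of RNA polymerase I, at 7.46 and 6.61 CPM per kb, and UTP4 of the processome at 3.72 and 3.65 CPM per kb. The lowest value belonged to the ribosomal RNA methyltransferase gene NOP2 (0.245 and 0.357 CPM per kb). For NOP2 54.4% of the exon length is shared with another gene on the same strand, ENSG00000285238, where reads may go uncounted, so its level and changes are uncertain. The same holds in part for LTV1 (34.7% shared) and RRS1 (11.3%). NPM1 has 49 named pseudogenes, and the counting kept only reads with a mapping quality of at least 10.

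Promoters of the members were searched for the E-box CACGTG, a palindrome that reads alike on both strands and that MYC with its partner MAX binds, among other factors. RefSeq windows of 250 bases before to 50 bases after the gene start (GRCh38.p14) were at hand for 37 of 45 members, all but TCOF1, NOLC1, NOP58, RRP12, BOP1, RRP1B, RRS1 and DDX18. CACGTG was present in 16 of the 37 (43.2%), against 10.1% of 10802 promoters of tested protein-coding genes and 7.43% of 27305 promoters in all. The looser form CANNTG, which includes CACGTG, was in 67.6% of the 37, against 59.9% and 68.9% of those sets. In 14 members a CACGTG began within 50 bases of the start. The 66-base windows below run from 44 bases before the start to 22 bases from it onward, for the 8 members whose start is the same in the count files and whose E-box lies wholly inside. The windows were picked by these positions and not by the change of the gene. UTP20, PNO1 and MRTO4 rose in both depletions, NOP14 only in the knockdown and WDR43 only in the knockout. FBL fell in the knockdown, and UTP18 and RRP9 were called in neither. Capitals mark the E-box, and all windows read in the direction of the gene.
UTP20 (chr12:101280061-101280126, plus strand): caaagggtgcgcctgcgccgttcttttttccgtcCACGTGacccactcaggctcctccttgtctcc
PNO1 (chr2:68157844-68157909, plus strand): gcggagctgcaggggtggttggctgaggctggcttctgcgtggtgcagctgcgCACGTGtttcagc
MRTO4 (chr1:19251761-19251826, plus strand): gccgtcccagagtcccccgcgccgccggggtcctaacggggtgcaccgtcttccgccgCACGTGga
NOP14 (chr4:2963385-2963450, minus strand): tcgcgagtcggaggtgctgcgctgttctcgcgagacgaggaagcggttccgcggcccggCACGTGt
WDR43 (chr2:28894623-28894688, plus strand): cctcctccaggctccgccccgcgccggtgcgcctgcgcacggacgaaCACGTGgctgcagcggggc
UTP18 (chr17:51260502-51260567, plus strand): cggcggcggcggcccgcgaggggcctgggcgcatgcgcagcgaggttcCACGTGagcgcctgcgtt
RRP9 (chr3:51941883-51941948, minus strand): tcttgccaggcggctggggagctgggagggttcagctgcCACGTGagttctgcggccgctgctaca
FBL (chr19:39846358-39846423, minus strand): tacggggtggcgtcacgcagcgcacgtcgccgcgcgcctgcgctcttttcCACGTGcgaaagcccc

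In the MLL2 knockout, ribosome biogenesis genes were mostly higher than in control cells, by modest amounts. Of the 45, 23 rose and 2 fell (adjusted p under 0.05), with a median log2 change of 0.28 against -0.01 for all genes tested. Of all genes tested 10.3% were called higher and 12.1% lower. Among the 8387 protein-coding genes with an average log2 CPM above 4, a level closer to that of the members, 18.6% were higher and 12.8% lower, with a median of 0.06. Both knockout libraries lay above both control libraries for 39 members and below them for 2. Of all 17575 genes tested, 5289 lay above and 5710 below, so such separation is common with 2 libraries per group. No member changed 2-fold. Leaving out a library moved the median little (0.27 to 0.30). With 1 control or knockout library left, fewer members passed the test, and so did a smaller share of all genes. Without a knockdown library more members and a larger share of all genes were called higher. Leaving out control replicate 1 gave 12 higher and 1 lower, control replicate 2 gave 8 and 0, knockout replicate 1 gave 11 and 0, and knockout replicate 2 gave 12 and 0, while leaving out either knockdown library gave 33 and 2. The 8 rises called whichever library was left out were those of GRWD1, NIP7, NOP16, PNO1, POLR1B, RRP12, UTP15 and UTP20.

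In the PRMT1 knockdown members moved in both directions. With all 6 libraries, falls (13.3% of them) were called less often than among all genes tested. That contrast did not hold without knockdown replicate 1. Of the 45, 20 rose and 6 fell against control cells, with a median log2 change of 0.15 against -0.04 for all genes tested. The background was wider here, with 22.2% of all genes called higher and 25.3% lower, or 31.9% and 31.5% of the protein-coding genes above an average log2 CPM of 4. Without the 3 members that share exons with another gene, 17 of 42 rose and 6 fell, and the median was 0.11. The 6 that fell were FBL, NPM1, RRP1B, EBNA1BP2, NOP56 and NIP7. Without knockdown replicate 1, 12 were called lower. The 14 rises called whichever library was left out did not include HEATR1, LTV1, NOP2, NOP58, RRS1 and UTP14A, and the 4 such falls were those of FBL, NPM1, RRP1B and EBNA1BP2.

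**Figure D1:**
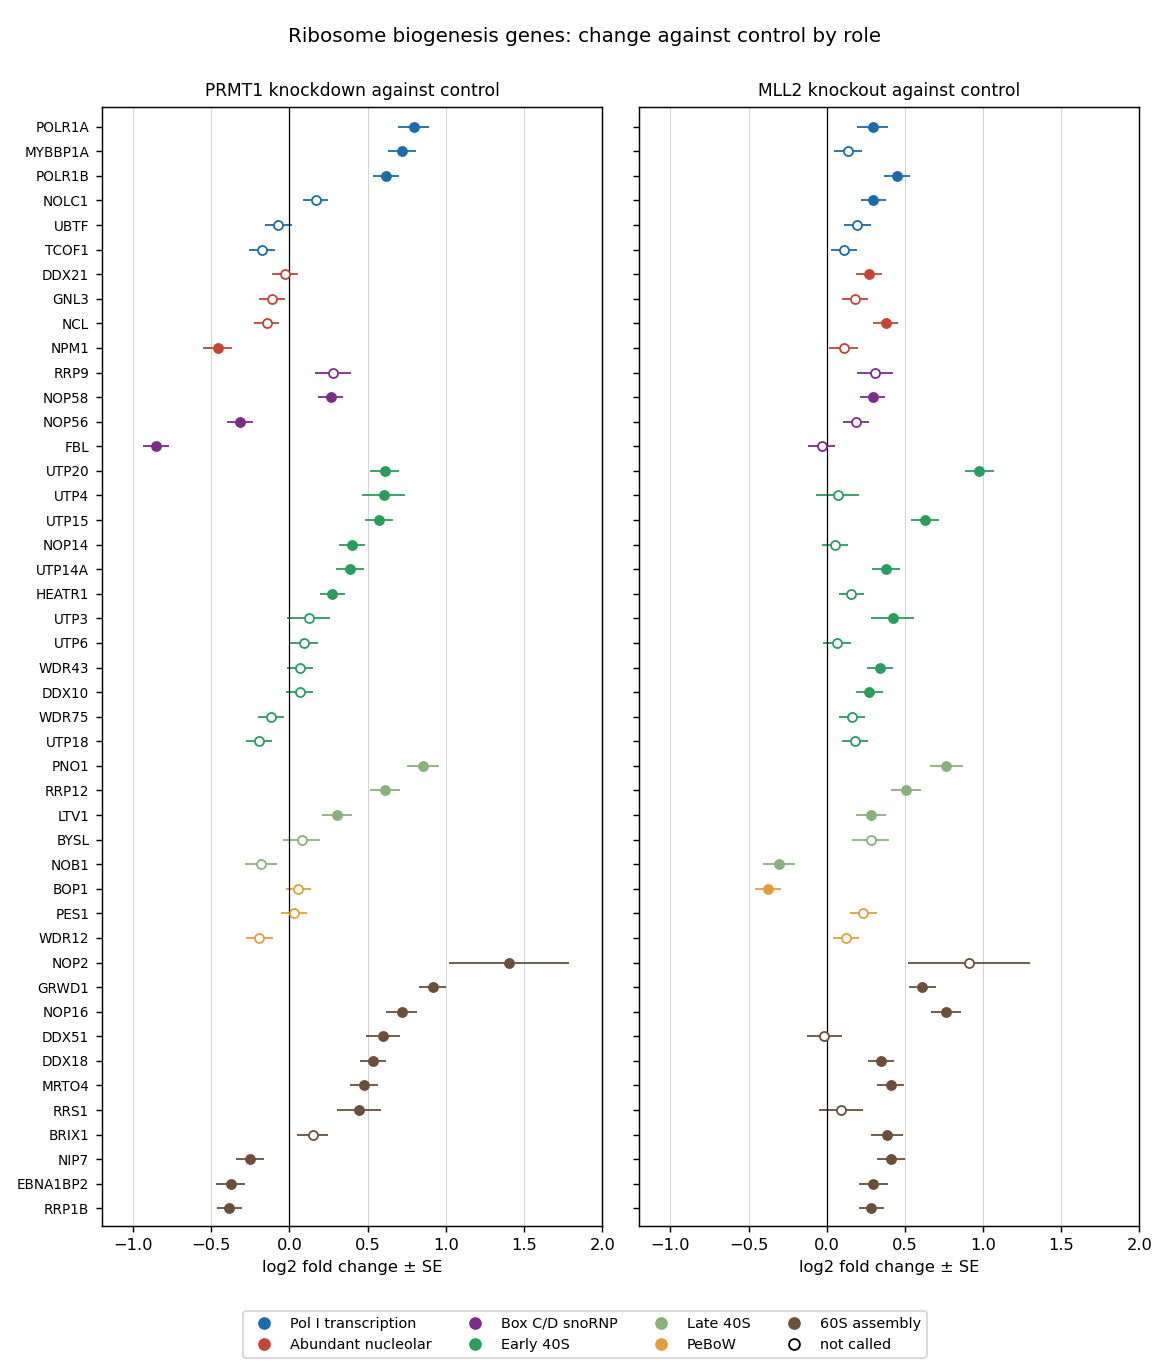
Log2 fold change ± SE of the 45 genes, grouped by role, in the PRMT1 knockdown (left) and the MLL2 knockout (right), each against control cells (n = 2 libraries per group). Filled points passed an adjusted p of 0.05. Most points of the right panel lie above 0, where 23 rose and 2 fell, while those of the left panel spread to either side, with 20 that rose and 6 that fell.

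**Figure D2:**
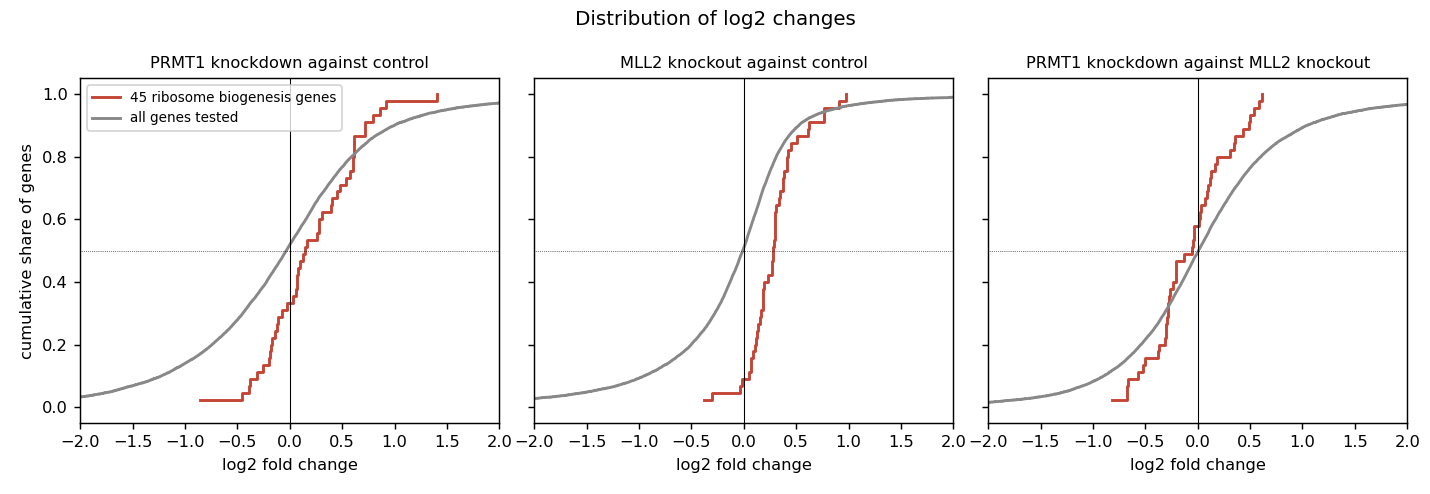
Cumulative share of genes (y axis) by log2 fold change (x axis) for the 45 ribosome biogenesis genes (red) and all 17575 genes tested (grey, drawn from -2 to 2). The members' curve crosses 0.5 at 0.15 in the knockdown against control, 0.28 in the knockout against control and -0.05 in the knockdown against the knockout.

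RNA polymerase I genes were called higher for 3 of 6 members in each depletion. For comparison, 22.2% of all genes tested were higher in the knockdown and 10.3% in the knockout. Among protein-coding genes above an average log2 CPM of 4 these shares were 31.9% and 18.6%. No count by role was tested against such shares. POLR1A stood at 146.5 and 183 CPM in knockdown cells, 115 and 118 CPM in knockout cells and 101 and 89.3 CPM in control cells. It was highest in the knockdown (log2 change 0.79 ± 0.10, adjusted p = 1.5e-06) and between the others in the knockout (0.29 ± 0.10, adjusted p = 0.0401, not called without any 1 control or knockout library). POLR1B, the next largest subunit, was at 202 and 187 CPM in knockdown cells, 177 and 169.9 CPM in knockout cells and 129 and 125 CPM in control cells. Its groups did not overlap, and it rose by 0.62 ± 0.08 in the knockdown and 0.45 ± 0.08 in the knockout. UBTF, which binds ribosomal gene promoters, was at 111 and 101 CPM in knockdown cells, 128 and 127 CPM in knockout cells and 116 and 106 CPM in control cells. Knockdown and control overlapped, and neither change against control was called (-0.07 ± 0.09 in the knockdown and 0.20 ± 0.09 in the knockout). MYBBP1A, a nucleolar protein that binds MYB, was at 175 and 207 CPM in knockdown cells, 129.5 and 125.5 CPM in knockout cells and 114 and 118 CPM in control cells. It rose in the knockdown (0.72 ± 0.09) and was not called in the knockout (0.14 ± 0.09). NOLC1 rose in the knockout (0.30 ± 0.08) and was not called in the knockdown (0.17 ± 0.08), while TCOF1, the treacle cofactor of RNA polymerase I, was not called in either.

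Of the 4 abundant nucleolar proteins, none rose and 1 fell in the knockdown, and 2 rose and none fell in the knockout. The share lower in the knockdown, 25%, lies near the 25.3% of all genes tested. In the knockout 10.3% of all genes were higher. NPM1 was at 2975 and 2464 CPM in knockdown cells, 4146 and 3909 CPM in knockout cells and 3843 and 3625 CPM in control cells. The knockdown libraries were the lowest, 1.37-fold below control (-0.46 ± 0.09, adjusted p = 3.7e-04). NPM1 outweighed the other members, so their summed level is given with and without it. The sum with NPM1 was 11160 and 10050 CPM in knockdown cells, 12940 and 12740 CPM in knockout cells and 11160 and 10920 CPM in control cells. Without NPM1 it was 8185 and 7590 CPM in knockdown cells, 8791 and 8832 CPM in knockout cells and 7313 and 7296 CPM in control cells, so the knockdown libraries lay above control only in that second sum. NCL was at 469.8 and 451 CPM in knockdown cells, 650.5 and 673 CPM in knockout cells and 531 and 488 CPM in control cells. It rose in the knockout (0.38 ± 0.08, adjusted p = 0.0018), and its lower level in the knockdown was not called (-0.15 ± 0.08, adjusted p = 0.142). DDX21 rose in the knockout by 0.27 ± 0.08, and GNL3 was not called in either depletion.

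The box C/D snoRNP, which methylates the ribose of ribosomal RNA, held the strongest fall. FBL, fibrillarin, its methyltransferase, was at 70.4 and 71.3 CPM in knockdown cells, 129 and 121 CPM in knockout cells and 125 and 131 CPM in control cells. The knockdown libraries were far below the other 4, which overlapped, and FBL was 1.81-fold lower than in control cells (-0.85 ± 0.09, adjusted p = 7.0e-08). NOP56, a scaffold of the same particle, was at 434 and 379 CPM in knockdown cells, 568 and 583 CPM in knockout cells and 498.5 and 513 CPM in control cells. It fell in the knockdown (-0.31 ± 0.08, adjusted p = 0.0037, not called without control replicate 2) and was not called in the knockout (0.19 ± 0.08). Its partner NOP58 went the other way in the knockdown. NOP58 was at 275 and 254 CPM in knockdown cells, 269.6 and 271 CPM in knockout cells and 221 and 219.5 CPM in control cells. It rose by 0.26 ± 0.08 in the knockdown and 0.29 ± 0.08 in the knockout. The knockdown call of NOP58 was lost without either control library (0.20 to 0.32 with a library left out). Its knockout call was lost without any 1 control or knockout library (0.29 to 0.30). RRP9, which binds the U3 snoRNA, was not called in either, at 0.28 ± 0.12 in the knockdown and 0.31 ± 0.12 in the knockout, and was called higher in both with a correction for length and GC content (0.73 and 0.41 in that order).

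Of 12 members of the early small-subunit processome, 6 rose and none fell in each depletion. Among all genes tested 22.2% were higher and 25.3% lower in the knockdown, and 10.3% and 12.1% in the knockout. UTP20, a very large scaffold protein, was at 161 and 165 CPM in knockdown cells, 214 and 207 CPM in knockout cells and 119 and 95.1 CPM in control cells. The 3 groups did not overlap. It had the largest called change of the members in the knockout (0.98 ± 0.10, adjusted p = 3.7e-07, 0.83 to 1.15 with a library left out) and rose by 0.61 ± 0.09 in the knockdown. UTP15, of the subcomplex that binds the first part of the precursor, was at 111 and 98.7 CPM in knockdown cells, 109.5 and 108 CPM in knockout cells and 67.8 and 72.9 CPM in control cells. All 4 depleted libraries lay above control, by 0.57 ± 0.09 in the knockdown and 0.63 ± 0.09 in the knockout. UTP4 of the same subcomplex was at 28.8 and 33.9 CPM in knockdown cells, 23.8 and 19.5 CPM in knockout cells and 20.8 and 20.5 CPM in control cells. Only the knockdown separated from control (0.60 ± 0.14, adjusted p = 0.0011), and the knockout did not (0.07 ± 0.14). UTP14A, which activates a processome helicase, rose by 0.39 ± 0.09 in the knockdown and 0.38 ± 0.09 in the knockout. NOP14 rose by 0.40 ± 0.08 and HEATR1 by 0.27 ± 0.08 in the knockdown. WDR43 (0.34 ± 0.08), UTP3 (0.42 ± 0.14) and the helicase gene DDX10 (0.27 ± 0.09) rose in the knockout. UTP6, UTP18 and WDR75 were not called in either.

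Late small-subunit factors rose for 3 of 5 members in each depletion, against 22.2% of all genes tested in the knockdown and 10.3% in the knockout. PNO1, which guards the cutting site at the end of the small-subunit RNA, was at 98.4 and 83.6 CPM in knockdown cells, 89.6 and 81.3 CPM in knockout cells and 46.96 and 53.6 CPM in control cells. It rose 1.81-fold in the knockdown (0.86 ± 0.10, adjusted p = 8.7e-07) and 1.70-fold in the knockout (0.77 ± 0.10, adjusted p = 2.4e-05). NOB1, the nuclease that makes that cut, was at 43 and 44.5 CPM in knockdown cells, 41.2 and 39.1 CPM in knockout cells and 48.2 and 51.2 CPM in control cells. It fell in the knockout by 0.31 ± 0.10 (adjusted p = 0.0379, not called with DESeq2 or without any 1 control or knockout library) and was not called in the knockdown (-0.18 ± 0.10). RRP12, an export factor, rose by 0.61 ± 0.09 in the knockdown and 0.51 ± 0.10 in the knockout. LTV1, another export factor, was at 64.3 and 59.5 CPM in knockdown cells, 60.7 and 61.2 CPM in knockout cells and 50.6 and 49.6 CPM in control cells. All depleted libraries were above control, by 0.30 ± 0.10 in the knockdown and 0.28 ± 0.10 in the knockout. The knockout call of LTV1 was lost without any 1 control or knockout library (0.27 to 0.30), without the count filter and with a correction for length and GC content (0.21, adjusted p = 0.0889). BYSL was not called in either.

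The trio PES1, BOP1 and WDR12 forms the PeBoW complex of large-subunit assembly, and its members did not move together. PES1 was at 291 and 253 CPM in knockdown cells, 318 and 309 CPM in knockout cells and 259 and 274 CPM in control cells. WDR12 was at 104 and 95.5 CPM in knockdown cells, 124 and 124 CPM in knockout cells and 112.5 and 115 CPM in control cells. Neither was called against control in either depletion. BOP1 was at 137 and 131 CPM in knockdown cells, 99.5 and 99.2 CPM in knockout cells and 126.5 and 131 CPM in control cells. It fell in the knockout, 1.30-fold below control (-0.38 ± 0.08, adjusted p = 0.0026), and the call was lost without control replicate 2 and without either knockout library. BOP1 lies on chromosome 8 (144262045 to 144291438), where from 50 Mb on 157 of 252 genes (those averaging over 2 in log2 CPM) were lower in the knockout and 1 was higher, with a median of -0.45. RRS1, the other member on that stretch (66429014 to 66430733), was at 29.1 and 27 CPM in knockdown cells, 19.7 and 24.1 CPM in knockout cells and 22.2 and 19 CPM in control cells. Its knockout and control libraries overlapped (0.09 ± 0.14), and it rose in the knockdown (0.45 ± 0.14). LTV1 lies on chromosome 6 (143843338 to 143863812) in a stretch from 70 Mb on whose 278 genes had a median of -0.30 in the knockout, and its level was higher there. The part of these stretches in the members' levels was not tested.

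Large-subunit assembly genes were called most often of the role groups by share in the knockdown, with 7 of 11 higher and 3 lower. In the knockout 8 were higher and none lower. The shares of all genes tested were 22.2% higher and 25.3% lower in the knockdown, and 10.3% and 12.1% in the knockout. The 27.3% of this group lower in the knockdown lies near the share of all genes. GRWD1, a chaperone of a ribosomal protein, was at 208 and 188 CPM in knockdown cells, 154 and 167 CPM in knockout cells and 102 and 108 CPM in control cells. The groups did not overlap, and GRWD1 rose 1.89-fold in the knockdown (0.92 ± 0.09, adjusted p = 3.3e-08) and 1.53-fold in the knockout (0.61 ± 0.09, adjusted p = 4.2e-05). NOP16 was at 81.3 and 71.5 CPM in knockdown cells, 80.8 and 76.8 CPM in knockout cells and 46.5 and 46.5 CPM in control cells. The depleted groups overlapped each other and stood above control, by 0.72 ± 0.10 in the knockdown and 0.76 ± 0.10 in the knockout. The helicase gene DDX18 and MRTO4, which resembles a ribosomal stalk protein, also rose in each, by 0.53 ± 0.08 and 0.48 ± 0.09 in the knockdown and by 0.35 ± 0.08 and 0.41 ± 0.09 in the knockout. The helicase gene DDX51 was at 51.4 and 55.5 CPM in knockdown cells, 33.5 and 36.4 CPM in knockout cells and 33.9 and 36.7 CPM in control cells. It rose in the knockdown (0.60 ± 0.11), while its knockout and control libraries overlapped (-0.02 ± 0.11). BRIX1 was called in the knockout (0.39 ± 0.10) and not in the knockdown (0.15 ± 0.10). NOP2 was at 3.58 and 3.91 CPM in knockdown cells, 2.96 and 2.35 CPM in knockout cells and 1.15 and 1.67 CPM in control cells. Its groups did not overlap, but these are few reads, 23 at the lowest, and the change in the knockdown (1.40 ± 0.38, adjusted p = 0.0047) was not called without control replicate 1.

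EBNA1BP2, RRP1B and NIP7 were called in opposite directions, lower in the knockdown and higher in the knockout. EBNA1BP2 was at 131 and 108.5 CPM in knockdown cells, 191 and 191 CPM in knockout cells and 152 and 159 CPM in control cells. The groups did not overlap, with changes of -0.38 ± 0.09 in the knockdown and 0.30 ± 0.09 in the knockout. RRP1B, a nucleolar partner of a protein phosphatase, was at 159 and 159.5 CPM in knockdown cells, 247.5 and 259 CPM in knockout cells and 209 and 207 CPM in control cells. Its changes were -0.39 ± 0.08 in the knockdown and 0.28 ± 0.08 in the knockout, again without overlap. NIP7 was at 61.6 and 62.2 CPM in knockdown cells, 96.1 and 100.1 CPM in knockout cells and 73.1 and 74.3 CPM in control cells. The call of its fall in the knockdown (-0.25 ± 0.09, adjusted p = 0.0245) was lost under most alternatives. These were DESeq2, library totals alone, no count filter, a fit of the compared groups and the corrections for exon length and for length and GC content. It was also lost without any 1 control or knockout library (-0.27 to -0.25). The rise of NIP7 in the knockout (0.41 ± 0.09) was called without any 1 library. The knockout calls of EBNA1BP2 and RRP1B were lost without any 1 control or knockout library, with log2 changes that stayed at 0.27 to 0.33 and 0.26 to 0.32.

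**Figure D3:**
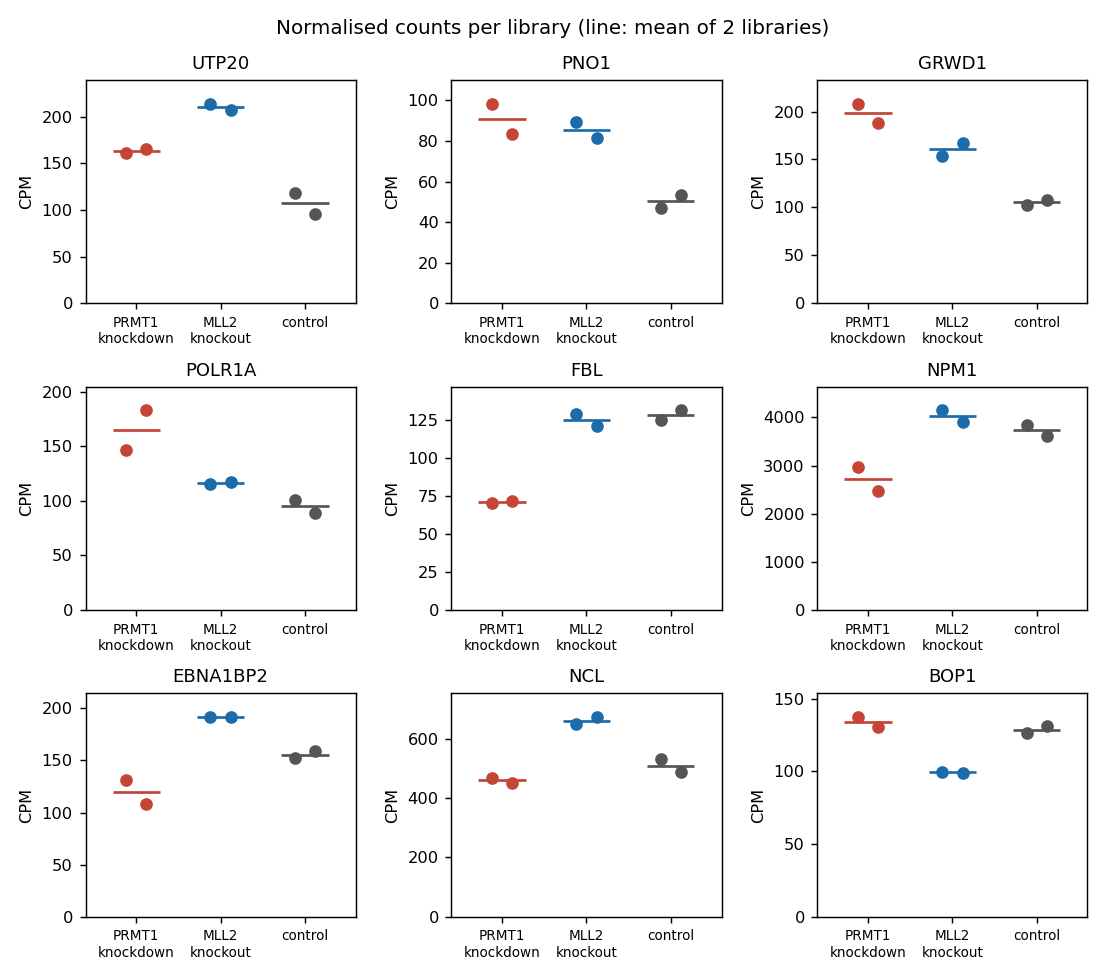
CPM (y axis, from 0) in each library of the PRMT1 knockdown, the MLL2 knockout and control cells for 9 of the genes, with lines at the mean of the 2 libraries. UTP20, PNO1, GRWD1 and POLR1A are lowest in control cells, FBL, NPM1, EBNA1BP2 and NCL are lowest in the knockdown, and BOP1 is lowest in the knockout at 99.5 and 99.2 CPM.

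Set directly against the knockout, the knockdown was lower for 16 members and higher for 8. Of all genes tested 40.7% were called, 19.4% higher and 21.4% lower. Of the protein-coding genes above an average log2 CPM of 4, 24.6% were higher and 32.3% lower. Among the members 17.8% were higher, near the 19.4% of all genes and below the 24.6% of those protein-coding genes. The 35.6% that were lower lay above the 21.4% of all genes and near the 32.3% of those protein-coding genes. How the counts read depends on the background chosen, so they are taken as no result about the members as a list. The median of the members was -0.05 against 0.01 for all genes tested, and this median turned positive with library totals alone, with the length corrections and without knockdown replicate 2. The 4 abundant nucleolar proteins were all lower in the knockdown: NPM1 by 0.57 ± 0.09, NCL by 0.52 ± 0.08, DDX21 by 0.30 ± 0.08 and GNL3 by 0.29 ± 0.08, each a fall on the log2 scale. The GNL3 call was lost with the correction for length and GC content (-0.15, adjusted p = 0.0669). Among the snoRNP genes FBL fell by 0.82 ± 0.09 and NOP56 fell by 0.50 ± 0.08. RRP1B (-0.67 ± 0.08), EBNA1BP2 (-0.67 ± 0.09) and NIP7 (-0.66 ± 0.09) were lower as well. Higher in the knockdown were DDX51 (0.61 ± 0.11), MYBBP1A (0.58 ± 0.09), UTP4 (0.53 ± 0.14), POLR1A (0.50 ± 0.10) and BOP1 (0.43 ± 0.08). Without knockout replicate 1 the counts were 10 lower and 5 higher, and without knockout replicate 2 they were 10 and 7. The calls made whichever library was left out were 4 of the 8 (BOP1, DDX51, MYBBP1A and POLR1A) and 9 of the 16 (EBNA1BP2, FBL, NCL, NIP7, NOP56, NPM1, RRP1B, UTP18 and UTP20). Without a correction for length and GC content, none of the 5 late small-subunit factors was called by edgeR, and with it NOB1 (0.42), LTV1 (0.33) and PNO1 (0.30) were called higher in the knockdown.

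Exon length moved with the knockdown's values. Among genes averaging over 2 in log2 CPM, the knockdown's median log2 change was -0.36 for those with 1000 to 2000 nt of exons, -0.15 for 2000 to 4000 nt, 0.01 for 4000 to 8000 nt and 0.16 for longer ones. The members, with 1542 to 13519 nt, had medians of 0.29 (4 genes), 0.09 (14), 0.08 (18) and 0.44 (8) in those classes. After smooth offsets for exon length and GC content, 26 members were higher and 7 lower in the knockdown, with a median of 0.33. With the same offsets, 26.7% of all genes tested were higher and 23.2% lower, and their median was 0.06, from -0.04 before. RRP9, BYSL (0.46), BOP1 (0.33), UTP3 (0.37), NOLC1 (0.26) and PES1 (0.21) were then called higher and WDR12 (-0.30) and TCOF1 (-0.17) lower, which they had not been before. FBL, with 2138 nt, was then at -0.52 (adjusted p = 4.3e-06), NPM1 at -0.41, RRP1B at -0.33, EBNA1BP2 at -0.25 and NOP56 at -0.23, all still called, and NIP7 at -0.19 was not (adjusted p = 0.0515). The part of read coverage along transcripts in these values was not tested. The 2 knockdown libraries also differed more than the others: the median absolute difference between replicates over the members was 0.13 on the log2 scale in knockdown cells, 0.05 in knockout cells and 0.07 in control cells.

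**Figure D4:**
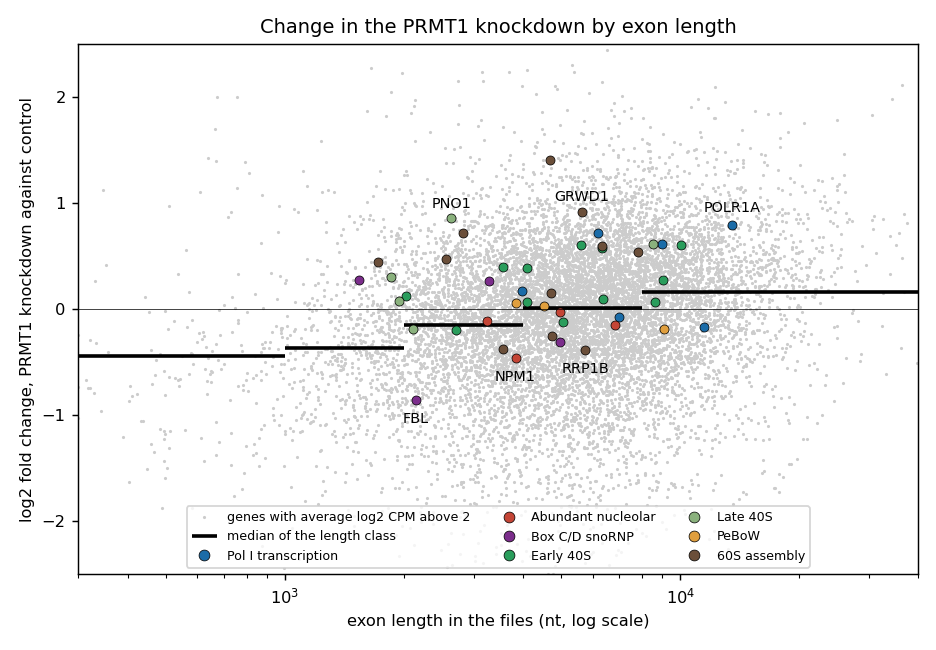
Log2 fold change of the PRMT1 knockdown against control (y axis) by exon length in nt (x axis, log scale) for genes with an average log2 CPM above 2 (grey), with the median of each length class (black) and the 45 genes coloured by role. The class medians of all genes run from -0.45 under 1000 nt to 0.16 over 8000 nt, while the members' class medians, which leave out the low-count NOP2 (1.40), are positive in the 4 classes that hold members.

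The members were also counted by E-box presence. In the knockdown, 9 of the 16 members with CACGTG rose and 2 fell, against 7 and 3 of the 21 without it. In the knockout, 7 of 16 rose and none fell, against 11 of 21 that rose and 1 that fell. These are counts with no test. All genes tested were called higher for 22.2% and lower for 25.3% in the knockdown, and for 10.3% and 12.1% in the knockout. Protein-coding genes above an average log2 CPM of 4 had 31.9% and 31.5% in the knockdown, and 18.6% and 12.8% in the knockout. Of the 8 members whose windows are shown above, UTP20, PNO1 and MRTO4 rose in each depletion, and UTP18 and RRP9 were called in neither. NOP14 rose only in the knockdown and WDR43 only in the knockout. FBL, whose E-box begins at base 7 of the transcript, fell in the knockdown. MYC itself was at 62.3 and 63.5 CPM in knockdown cells, 127 and 123 CPM in knockout cells and 197 and 209 CPM in control cells, a fall of 1.69 ± 0.09 in the knockdown and 0.70 ± 0.08 in the knockout on the log2 scale. Its part in the members' levels was not tested.

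Other genes of the pathway came from lists that hold no member. Like the members, these lists were chosen with earlier results of these data known, so they are no independent check. Of all genes tested, 22.2% were higher and 25.3% lower in the knockdown, and 10.3% and 12.1% in the knockout. Of the protein-coding genes above an average log2 CPM of 4, 31.9% were higher and 31.5% lower in the knockdown. In the knockout 18.6% of them were higher and 12.8% lower. Of 42 further small-subunit factors, 29 were higher and 4 lower in the knockdown (median log2 change 0.38) and 23 higher and 1 lower in the knockout (0.29). NOL6 (155 and 155 CPM in knockdown cells, 123 and 121 CPM in knockout cells and 67.7 and 69 CPM in control cells) rose by 1.18 ± 0.08 in the knockdown and 0.84 ± 0.08 in the knockout, and the helicase gene DHX37, which UTP14A activates in yeast and human cells, rose by 1.24 ± 0.09 in the knockdown and 0.79 ± 0.09 in the knockout. TBL3 fell by 0.29 ± 0.09 in the knockdown and 0.31 ± 0.09 in the knockout, and SNU13, which joins FBL, NOP56 and NOP58 in the box C/D particle, fell in the knockdown (-0.36 ± 0.09) and was not called in the knockout (0.18 ± 0.09). Of 47 further large-subunit factors, 21 were higher and 7 lower in the knockdown (0.15) and 18 higher and 2 lower in the knockout (0.21). URB2 rose by 0.87 ± 0.08 and 0.66 ± 0.08, the GTPase gene LSG1 rose by 0.92 ± 0.09 and 0.60 ± 0.09, each in the order knockdown and knockout. NSA2 fell in the knockdown (-0.93 ± 0.10) and was not called in the knockout (0.04 ± 0.10), NOP53 fell by 0.61 ± 0.09 in the knockdown and 0.50 ± 0.09 in the knockout, and RSL24D1 fell by 0.50 ± 0.09 in the knockdown and 0.65 ± 0.09 in the knockout. Of 17 other subunits and factors of RNA polymerase I, 3 were higher and 6 lower in the knockdown (median -0.0022) and 8 higher and 2 lower in the knockout (0.26). The shares in the knockdown, 17.6% higher and 35.3% lower, lie near those of all genes. TAF1C, of the promoter factor of RNA polymerase I, rose by 0.93 ± 0.16 in the knockdown and 0.55 ± 0.17 in the knockout. POLR1D, a subunit shared with RNA polymerase III, fell by 0.82 ± 0.09 in the knockdown and 0.43 ± 0.09 in the knockout. Of the 4 proteins of the box H/ACA snoRNP, which makes pseudouridine, 1 was higher and 1 lower in the knockdown and 2 were higher and none lower in the knockout. NHP2 fell in the knockdown (-0.61 ± 0.08) and was at -0.04 ± 0.08, not called, in the knockout. GAR1 rose by 0.90 ± 0.27 in the knockdown and 0.76 ± 0.27 in the knockout (adjusted p = 0.0459). Its level was low, at 12.5 and 6.33 CPM in knockout cells against 6.14 and 5.02 CPM in control cells. Knockout replicate 2 thus lay close to control. The knockdown libraries of GAR1 were at 11.8 and 9.04 CPM. NOP10 rose in the knockout (0.28 ± 0.09).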

How the data were processed

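The authors deposited raw read counts per gene for 6 libraries. Per the labels, RNA was extracted with TRIzol and libraries were made with the TruSeq Stranded Total RNA Gold kit. Per the submitters' processing notes, the tools were STAR 2.7.5a with hg38, featureCounts 1.5.0-p1, Trim Galore 0.6.10, FastQC 0.11.4 and DESeq2 1.36.0. Per the file headers, featureCounts 2.0.1 counted paired reads on the reverse strand (setting 2) with GENCODE 34 and a mapping quality of at least 10. Which featureCounts version applies is not known. Exon lengths (a unit of their own, in nt) are those of the deposited files.

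Names were matched for all 45 members and all 151 genes of the other lists. The members and lists were chosen with earlier results of these data known. Genes kept by filterByExpr (17575) entered 1 edgeR 4.0.16 model (R 4.3.3, TMM scaling) of the 3 groups, which leaves 3 residual degrees of freedom. P-values come from its quasi-likelihood F test, adjusted by Benjamini-Hochberg across the tested genes and called under 0.05, and log2 changes carry their SE. Since n = 2 per group, they measure the spread between these libraries, which may be technical. Replicates of a group differed by more than sampling noise, with a chi-square per degree of freedom of 4.45 to 12.8. The fit was also run on simulated data with these libraries' depths and 1 spread per gene shared by the 3 groups. That setting lacks the wider spread of the knockdown libraries (12.8), so it does not check the calls there. Alternatives were relative log expression, library totals, DESeq2 1.42.0, no count filter, a fit of the compared groups, a replicate block, an offset for exon length and, chosen later, for GC content too (GENCODE 29 transcripts, a value for all 45 members), and leaving out each library. Every member may be named. Values per library are given for up to 5 members per direction with the strongest called change against control (4 for the knockdown against the knockout) without overlap, for members chosen by role or chromosome, and for some others chosen after their values were seen. Up to 2 genes per other list and direction are given. Protein sequences were not used here.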

Additional observations from a re-analysis of the deposited data

How the results depend on the processing

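Of 1890 log2 changes of single members under the 14 alternatives, 1660 kept their call or lack of one, 112 lost a call, 118 gained one and 0 called changes turned sign. For the knockout against control, members called higher ranged over 8 to 33 and lower over 0 to 2 with a library left out, and 1 was lower with DESeq2 and 1 with no filter on low counts. For the knockdown against control, 15 to 25 were higher and 4 to 12 lower with a library left out. The median of 0.15 moved to 0.26 with library totals alone, 0.28 with the length correction and 0.33 with the GC and length correction. The median of all genes tested in the knockdown, -0.04, moved as well. It was 0.08 with library totals alone, 0.06 with the length correction and 0.06 with the GC and length correction. The median of the box C/D group in the knockdown, -0.03, turned to 0.09 with library totals alone, 0.0528 with the GC and length correction, 0.00881 with relative log expression and 0.00876 with DESeq2. For the knockdown against the knockout, 5 to 11 were higher and 10 to 20 lower with a library left out, when the median ranged from -0.148 to 0.0234, the highest without knockdown replicate 2. Members higher numbered 13 with the length correction and 13 with the GC and length correction. Their median turned to 0.0593 with library totals alone, 0.0276 with the length correction and 0.00905 with the GC and length correction. In that order, the median of all genes tested was 0.12, 0.08 and 0.08. The cause was not tested. With 1 library left in a group, that library is assumed to vary like the other groups. The replicate block gave 25 members higher and 2 lower in the knockout, 21 and 7 in the knockdown and 8 and 19 between them. The sample titles give only replicate numbers, so whether replicates of different groups were paired is not known. Differences between the replicates of a group correlated at 0.08 for knockout and control, 0.05 for knockdown and control and 0.20 for knockdown and knockout. The number of libraries per group limits which small changes can be called.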

Other observations

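Of 17 genes of the nuclear RNA exosome and other factors that trim ribosomal RNA precursors, 5 were higher and 6 lower in the knockdown (median log2 change 0.06), and 4 were higher and 2 lower in the knockout (0.16). The knockdown shares, 29.4% and 35.3%, lie near the 31.9% and 31.5% of protein-coding genes with an average log2 CPM above 4, so they are no result about this list. NOL9, a kinase of the ribosomal RNA spacer, was at 184 and 193.5 CPM in knockdown cells, 130.4 and 128 CPM in knockout cells and 117 and 104 CPM in control cells, and rose in the knockdown by 0.77 ± 0.09. The catalytic exosome subunit DIS3 rose by 0.67 ± 0.08 in the knockdown and 0.30 ± 0.08 in the knockout. The core ring subunits EXOSC8 and EXOSC9 fell in the knockdown by 0.70 ± 0.09 and 0.61 ± 0.09. EXOSC8 was at 79 and 78.5 CPM in knockdown cells, 94.3 and 88.7 CPM in knockout cells and 124.5 and 131 CPM in control cells, and also fell in the knockout (-0.48 ± 0.09). EXOSC9 was not called in the knockout (0.18 ± 0.09). EXOSC3 rose by 0.46 ± 0.10 in the knockdown and 0.50 ± 0.10 in the knockout.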
